A study of Mus musculus with 8 samples.

Results

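The constitutive proteasome genes are the genes named Psma, Psmb, Psmc or Psmd plus a number, which encode the proteasome found in nearly every cell. Of the 24860 gene symbols in the deposited table, 38 carried such a name, and 35 were left once the inducible catalytic genes Psmb8, Psmb9 and Psmb10 were set aside. A mean of at least 1 FPKM (sequenced fragments scaled for transcript length and for library depth) over the 8 libraries was required, and 34 genes met it. Psma8, a testis-type alpha subunit gene, averaged 0.0854 FPKM and was the gene left out. The lowest gene kept, Psmd10, averaged 7.44 FPKM. The genes lie on 15 chromosomes, 6 of them on chromosome 11, and 9 have exons that overlap another annotated gene (GENCODE, GRCm38). The 34 genes were examined within a fit over all 12858 genes that averaged at least 1 FPKM.

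The study asked, by its title, about protection of neurons and of vision when gap junctions between neurons are inhibited. RNA from mouse retina, with retinal ganglion cells (RGCs) named as the cell type, was sequenced as paired-end reads in 8 libraries. Of these, 4 are labelled AAV2-shCX36, an adeno-associated virus whose name gives a short hairpin RNA against connexin 36, the gap junction protein encoded by Gjd2. AAV2-scramble, a control virus whose name gives a scrambled sequence, marks the remaining 4. The strain, genotype, age, injury, time after injection, promoter of the hairpin and any cell sorting are not given in the sources used here, nor is which mice went into each library. The p-values therefore measure the spread between these libraries, which may be technical in part.

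The proteasome is the protease that degrades proteins tagged with ubiquitin. Its barrel-shaped core particle is built of outer alpha rings, which gate the entrance, and inner beta rings, which carry the proteolytic sites. A regulatory particle caps the barrel: its base holds a ring of ATPases that unfold the substrate, and its lid removes the ubiquitin. Neurons rely on this machinery for protein turnover at synapses and along axons. When proteasome capacity is short, the transcription factor encoded by Nfe2l1 is known to raise the subunit genes together through antioxidant response elements (AREs). Interferon signalling raises the inducible catalytic subunits, which replace the constitutive ones in newly built particles.

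The promoter letters that bear on those routes are shown for the 5 constitutive genes with a match to the ARE core TGACNNNGC, and for the inducible Psmb8 with a match to the interferon-gamma-activated site TTCNNNGAA. The 250 bases before each RefSeq gene start (GRCm38.p6) were searched on both strands, and 28 of the 34 genes had a promoter entry. Capitals mark the motif, and each run reads 5′ to 3′ along the gene's own strand.
Psmb5 (chr14:54618024-54618052, minus strand): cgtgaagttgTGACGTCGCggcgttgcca
Psmb6 (chr11:70525338-70525356, plus strand): ctaaagagagTGACGGAGC
Psmd9 (chr5:123228149-123228177, plus strand): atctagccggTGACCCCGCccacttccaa
Psmc6 (chr14:45329587-45329615, plus strand): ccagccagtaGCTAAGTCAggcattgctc
Psmd12 (chr11:107479278-107479299, plus strand): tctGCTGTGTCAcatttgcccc
Psmb8 (chr17:34198088-34198116, plus strand): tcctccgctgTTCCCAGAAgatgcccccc
In Psmc6 and Psmd12 the motif lies on the opposite strand, so the capitals are its reverse complement. The ARE core occurred in 17.9% of the 28 constitutive promoters and in 10.2% of 32851 promoter windows of the same length. The CCAAT box, with its letters CCAAT, occurred in 11 of the 28 (39.3%) and in 33.8% of windows. No constitutive promoter held TTCNNNGAA, which was found in 7.02% of windows. Of the inducible genes, Psmb8 held it, and Psmb9 and Psmb10 did not in this window. No constitutive promoter held both the ARE core and the CCAAT box. A match is a description of the letters and not a bound site.

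Gjd2, the targeted gene, had 17.03, 14.0, 14.6 and 16.6 FPKM in AAV2-shCX36 libraries 1 to 4, against 38.7, 35.9, 17.4 and 18.2 FPKM in AAV2-scramble libraries 1 to 4. The groups did not overlap (log2 difference -0.70, two-sided exact permutation p = 0.0286, the smallest that 4 against 4 libraries allow), while the adjusted p over all genes was 0.148 in limma. AAV2-scramble 3 and 4 lay close to the AAV2-shCX36 libraries. Without AAV2-scramble 1 and 2 the log2 difference of Gjd2 was -0.19. Exons of Gjd2 overlap A530058N18Rik on the other strand, which averaged 7.11 FPKM, and reads of the pair cannot be told apart without strand.

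The 8 libraries differed within the groups as well as between them. On the first principal component of all genes (43.5% of the variance) AAV2-shCX36 1, 2 and 3 lay together at -17.8, -20.0 and -17.7. AAV2-shCX36 4 lay at -8.53, nearer to AAV2-scramble 4 at -3.77 than to its own group. The AAV2-scramble libraries were spread, with 1 and 2 farthest from the rest. Summed RGC marker levels (8 genes) ranged over 2479 to 2671 FPKM in AAV2-shCX36 and 1465 to 2574 FPKM in AAV2-scramble, lowest in AAV2-scramble 2, and no RGC marker passed the test. Summed rod markers (6 genes) ranged over 578 to 789 FPKM in AAV2-shCX36 and 937 to 1441 FPKM in AAV2-scramble, with rod markers present in every library. Past the threshold 4 of the 6 fell, against 2.52% of all genes. Müller glia markers (5 genes) ranged over 201 to 318 FPKM in AAV2-shCX36 and 432 to 728 FPKM in AAV2-scramble, and 3 of 5 fell. Microglia markers (6 genes) ranged over 165 to 265 FPKM in AAV2-shCX36 and 151 to 689 FPKM in AAV2-scramble, and 1 of 6 fell. Oligodendrocyte markers ranged over 10.6 to 11.95 FPKM in AAV2-shCX36 and 11.2 to 160 FPKM in AAV2-scramble, highest in AAV2-scramble 2. Lens markers ranged over 13.4 to 323 FPKM in AAV2-shCX36 and 0.153 to 15.2 FPKM in AAV2-scramble. They were highest in AAV2-shCX36 4 and 1, at 323 and 149 FPKM. T and NK lymphocyte markers stayed under 4 FPKM in every library. No marker was at 0 in all libraries. The part of these shifts in the proteasome values was not tested, and in bulk RNA fewer cells of a type cannot be told apart from less RNA per cell.

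None of the 34 constitutive proteasome genes passed an adjusted p of 0.05 in either direction in limma. Over all 12858 genes, 288 (2.24%) were higher and 324 (2.52%) were lower past that threshold. The genes nonetheless leaned one way: 30 of 34 (88.2%) had a positive difference, against 52.4% of all genes tested. The exceptions were Psma3, Psma7, Psmd9 and Psmd10. The median log2 difference was 0.11 over the 34 genes and 0.01 over all genes, on the log2(FPKM + 1) scale. The median size of the difference, sign aside, was 0.124 for the 34 genes and 0.130 for all genes. It was 0.118 for the 6817 genes averaging between the lowest and the highest of the 34, 7.44 to 103.7 FPKM. That band is wide, so these genes are not matched to the 34 by level.

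At an unadjusted p under 0.05, 8 of the 34 genes (23.5%) were higher, against 12.3% of all genes, and 1 (2.94%) was lower, against 10.3%. Groups that did not overlap, with AAV2-shCX36 higher, were seen for 5 genes (14.7%), against 8.85% of all genes. Psmd9 alone had AAV2-shCX36 lower without overlap (2.94%, against 7.05%). The best-ranked member, Psmd3, stood at position 1047 of all genes by p. The 95% intervals of all 34 log2 differences lay between -0.371 and 0.529, which corresponds to 0.773-fold to 1.44-fold. Those bounds are the outermost ones, of Psmd10 below and Psma5 above, and most intervals were narrower. For 9 genes, those at an unadjusted p under 0.05, the interval excluded 0.

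**Figure D1:**
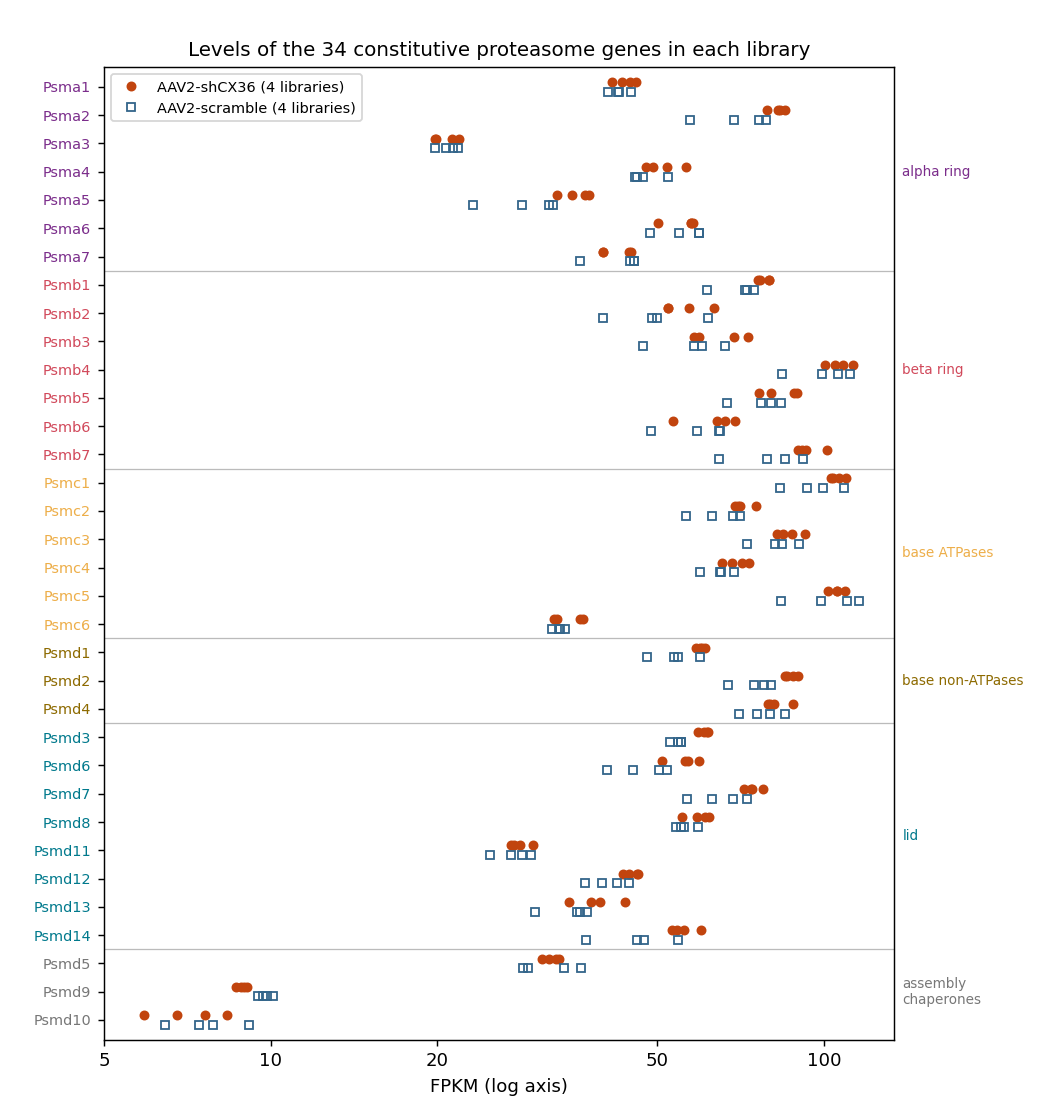
FPKM of each of the 34 genes on a log axis, with filled circles for the 4 AAV2-shCX36 libraries and open squares for the 4 AAV2-scramble libraries. Genes are grouped by their place in the particle. Levels run from Psmd10 at a mean of 7.44 FPKM to Psmc5 at 103.7 FPKM, and for most genes the circles and squares overlap.

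Levels within the particle were of one order. Over the 31 genes that encode subunits of the finished particle, the highest mean was 4.98 times the lowest, and the median over all 34 genes was 57.2 FPKM. Psmc5, an ATPase of the base, was highest with 101.6, 105.7, 109.0 and 105.7 FPKM in AAV2-shCX36 libraries 1 to 4, against 98.9, 83.5, 109.9 and 115.5 FPKM in AAV2-scramble libraries 1 to 4. AAV2-scramble held both the lowest and the highest of these values, and the log2 difference was 0.06 (adjusted p = 0.755, limma). Psmb4, a beta-ring subunit without proteolytic activity, was next with 112.6, 100.3, 104.6 and 108.1 FPKM in AAV2-shCX36, against 105.8, 83.9, 99.04 and 111.5 FPKM in AAV2-scramble. Only AAV2-scramble 2 and 3 fell below every AAV2-shCX36 library, and the log2 difference was 0.09 (adjusted p = 0.561). The 3 genes with the lowest means, Psmd10, Psmd9 and Psma3, followed at 7.44, 9.33 and 20.8 FPKM over all libraries.

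The alpha ring (Psma1 to Psma7) had mean levels from 20.8 FPKM for Psma3 to 76.3 FPKM for Psma2. Of its 7 genes, 5 had positive and 2 negative differences, with a median log2 difference of 0.03, and 2 were higher at an unadjusted p under 0.05. Psma5 had 37.5, 35.1, 32.9 and 37.0 FPKM in AAV2-shCX36, against 31.9, 23.2, 28.5 and 32.4 FPKM in AAV2-scramble. All AAV2-shCX36 values lay above all AAV2-scramble values, with AAV2-scramble 1 and 4 just under the lowest of them. It averaged 35.6 ± 2.10 FPKM in AAV2-shCX36 and 29.0 ± 4.20 FPKM in AAV2-scramble (SD, n = 4 each), the largest difference of the 34 genes at log2 0.30 (limma adjusted p = 0.137). Psma2 had 83.2, 78.8, 82.7 and 84.9 FPKM in AAV2-shCX36, against 68.7, 57.2, 78.6 and 76.4 FPKM in AAV2-scramble. The lowest AAV2-shCX36 value and the highest AAV2-scramble value were nearly equal, with a log2 difference of 0.24 (limma adjusted p = 0.186). The other 5 alpha genes differed by log2 -0.02 to 0.10. Exons of Psma5 overlap 1700010K24Rik on the other strand.

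The beta ring (Psmb1 to Psmb7) had positive differences for all 7 genes, with a median log2 difference of 0.15 and a range from 0.09 for Psmb6 to 0.23 for Psmb7. Mean levels ran from 53.2 FPKM for Psmb2 to 103.2 FPKM for Psmb4. Psmb1, a subunit without proteolytic activity, averaged 77.9 ± 1.90 FPKM in AAV2-shCX36 and 70.2 ± 5.94 FPKM in AAV2-scramble (SD, n = 4 each) without overlap, and its limma adjusted p was 0.230. Psmb5 carries the chymotrypsin-like site, Psmb6 the caspase-like site and Psmb7 the trypsin-like site.

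Psmb5 had 88.3, 80.1, 89.4 and 76.2 FPKM in AAV2-shCX36, against 80.2, 66.7, 76.8 and 83.6 FPKM in AAV2-scramble. The groups overlapped, with AAV2-shCX36 4 below AAV2-scramble 1, 3 and 4. Psmb5 averaged 83.5 ± 6.36 FPKM in AAV2-shCX36 and 76.8 ± 7.26 FPKM in AAV2-scramble (SD, n = 4 each), a log2 difference of 0.12 with a 95% interval of -0.07 to 0.31 (limma adjusted p = 0.428). Psmb6 had 69.1, 53.3, 64.0 and 66.2 FPKM in AAV2-shCX36, against 59.0, 48.6, 64.9 and 64.6 FPKM in AAV2-scramble. Library 2 was the lowest of each group, and the groups overlapped. The log2 difference of Psmb6 was 0.09, with a 95% interval of -0.16 to 0.34 (limma adjusted p = 0.662). Psmb7 had 92.8, 89.7, 91.3 and 101.0 FPKM in AAV2-shCX36, against 78.8, 64.6, 85.1 and 91.6 FPKM in AAV2-scramble. Only AAV2-scramble 4 reached the AAV2-shCX36 values. Psmb7 averaged 93.7 ± 5.05 FPKM in AAV2-shCX36 and 80.0 ± 11.5 FPKM in AAV2-scramble (SD, n = 4 each), a log2 difference of 0.23 (limma adjusted p = 0.214). Exons of Psmb7 overlap Nek6 on the other strand. No source used here states if strand entered the counting, so reads of such overlapping pairs cannot be told apart. The annotation also holds 4 pseudogenes named after Psmb5, Psmb6 and Psmb7, and how reads shared with them were counted is not given either.

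**Figure D2:**
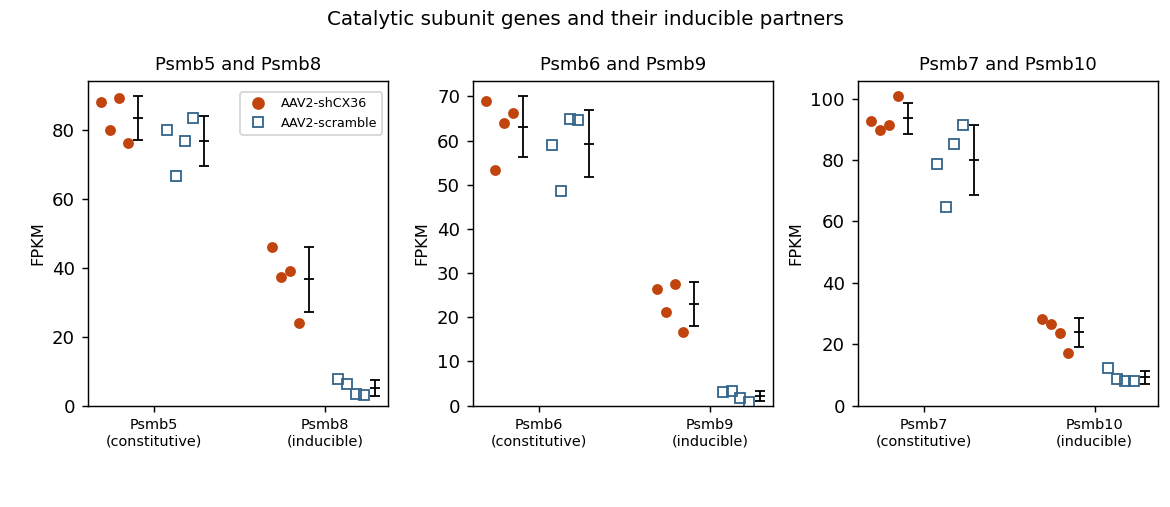
FPKM of each constitutive catalytic gene beside its inducible counterpart in every library, with filled circles for AAV2-shCX36, open squares for AAV2-scramble and black bars for mean ± SD of 4 libraries. Psmb5, Psmb6 and Psmb7 overlap between groups, while Psmb8, Psmb9 and Psmb10 do not.

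The inducible counterparts, which stand outside the 34 genes, rose: log2 2.67 for Psmb8, 2.94 for Psmb9 and 1.28 for Psmb10, with limma adjusted p of 0.00215, 0.00113 and 0.00664. Summed over Psmb5, Psmb6 and Psmb7, the constitutive catalytic level was 250, 223, 245 and 243 FPKM in AAV2-shCX36, against 218, 180, 227 and 240 FPKM in AAV2-scramble. The inducible sum was 101, 85.3, 90.2 and 57.7 FPKM in AAV2-shCX36, against 23.0, 18.1, 13.1 and 11.9 FPKM in AAV2-scramble. The constitutive sums overlapped between groups and the inducible sums did not. The constitutive genes thus remained the more abundant of the pair in every library.

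Within each pair the inducible share is given as a description, without a test. Psmb8 made up 30.1 ± 4.48% of Psmb8 plus Psmb5 in AAV2-shCX36 and 6.24 ± 2.84% in AAV2-scramble (SD, n = 4 each). Psmb9 made up 26.6 ± 4.44% of Psmb9 plus Psmb6 in AAV2-shCX36 and 3.80 ± 2.23% in AAV2-scramble. Psmb10 made up 20.3 ± 4.05% of Psmb10 plus Psmb7 in AAV2-shCX36 and 10.4 ± 2.55% in AAV2-scramble. The ranges of the groups did not overlap in any pair. Exons of Psmb9 overlap Tap1 and those of Psmb8 overlap Gm20496, each on the other strand. Exons of Psmb5 overlap Mir686 on the same strand.

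The base ATPases (Psmc1 to Psmc6), which unfold substrates and feed them into the barrel, all had positive differences. They ranged from log2 0.06 for Psmc6 to 0.15 for Psmc2 with a median of 0.09, and none reached an unadjusted p of 0.05. Mean levels ran from 33.9 FPKM for Psmc6 to 103.7 FPKM for Psmc5. Exons of Psmc3 overlap Slc39a13 on the other strand.

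The base subunits without ATPase activity, the scaffolds Psmd1 and Psmd2 and the ubiquitin receptor Psmd4, differed by log2 0.15, 0.21 and 0.08. Psmd2 had 88.0, 84.9, 85.6 and 89.8 FPKM in AAV2-shCX36, against 74.8, 67.2, 78.0 and 80.3 FPKM in AAV2-scramble. Every AAV2-shCX36 library lay above every AAV2-scramble library. Psmd2 averaged 87.1 ± 2.26 FPKM in AAV2-shCX36 and 75.1 ± 5.75 FPKM in AAV2-scramble (SD, n = 4 each), a log2 difference of 0.21. Its limma adjusted p was 0.1004.

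The lid had positive differences for all 8 genes, a median log2 difference of 0.16 and 4 genes at an unadjusted p under 0.05, Psmd3, Psmd6, Psmd7 and Psmd14, with 12.3% of all genes higher at that level. Psmd3, a structural lid subunit, had 61.6, 60.7, 59.3 and 61.5 FPKM in AAV2-shCX36, against 55.1, 52.6, 54.4 and 55.3 FPKM in AAV2-scramble. Both groups were tight and the gap between them exceeded the spread within either. Psmd3 averaged 60.8 ± 1.07 FPKM in AAV2-shCX36 and 54.3 ± 1.22 FPKM in AAV2-scramble (SD, n = 4 each), with a log2 difference of 0.16 ± 0.05 (SE). Its limma adjusted p of 0.0894 was the smallest among the 34 genes. Exons of Psmd3 overlap Gm12356 on the other strand.

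Psmd14, the deubiquitinase that cleaves ubiquitin chains from the substrate, had 59.8, 53.2, 54.3 and 55.9 FPKM in AAV2-shCX36, against 47.3, 37.1, 45.9 and 54.4 FPKM in AAV2-scramble. AAV2-scramble 4 lay among the AAV2-shCX36 values and AAV2-scramble 2 far below them. The log2 difference was 0.28 (limma adjusted p = 0.162). Psmd6, another structural lid subunit, had 56.0, 50.9, 56.7 and 59.5 FPKM in AAV2-shCX36, against 52.0, 40.5, 45.1 and 50.4 FPKM in AAV2-scramble. AAV2-shCX36 2 lay below AAV2-scramble 1, and the log2 difference was 0.25 (limma adjusted p = 0.142). Psmd7, the structural partner of Psmd14, averaged 74.3 ± 2.48 FPKM in AAV2-shCX36 and 65.1 ± 6.97 FPKM in AAV2-scramble (SD, n = 4 each; log2 0.19, limma adjusted p = 0.191). The groups overlapped through AAV2-scramble 4 alone. The remaining lid genes, Psmd8, Psmd11, Psmd12 and Psmd13, differed by log2 0.04 to 0.16. Exons of Psmd13 overlap Sirt3 on the other strand.

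The genes Psmd5, Psmd9 and Psmd10 encode chaperones that help assemble the base and leave before the particle is finished. Only Psmd5 among them had a positive difference, with log2 differences of 0.01, -0.13 and -0.10. Psmd9 had 9.07, 8.65, 8.82 and 8.95 FPKM in AAV2-shCX36, against 10.1, 9.87, 9.68 and 9.50 FPKM in AAV2-scramble. All AAV2-shCX36 values lay below all AAV2-scramble values, with a 95% interval of the log2 difference from -0.25 to -0.00 (limma adjusted p = 0.219). Psmd10 had 7.604, 5.90, 8.36 and 6.76 FPKM in AAV2-shCX36, against 7.43, 6.43, 7.88 and 9.13 FPKM in AAV2-scramble. The groups overlapped and the interval of Psmd10 was the one reaching furthest below 0, to -0.371 (limma adjusted p = 0.676). Leaving these chaperones out, 29 of 31 subunit genes had positive differences, with a median of 0.138. Exons of Psmd9 overlap Gm26745 on the other strand.

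**Figure D3:**
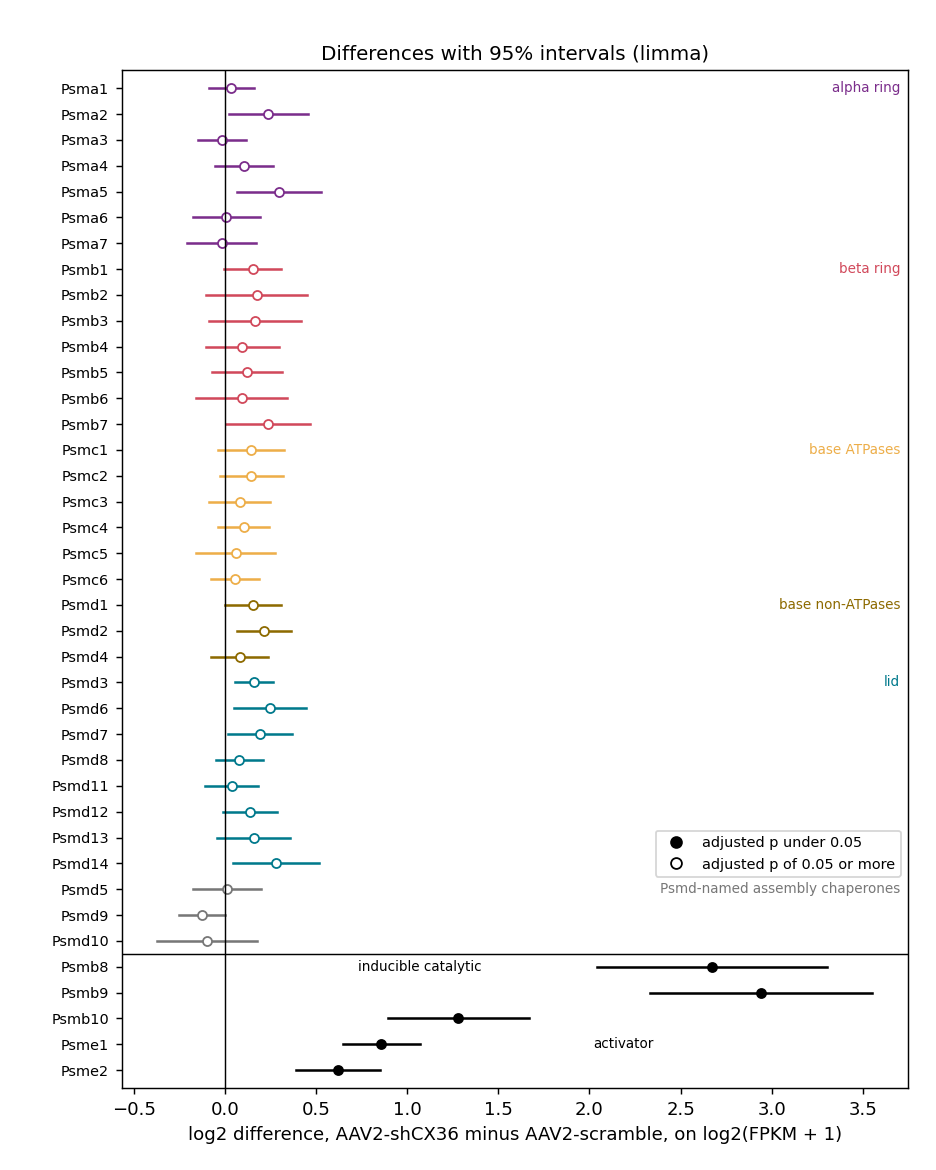
Log2 differences, AAV2-shCX36 minus AAV2-scramble, with 95% intervals from limma for the 34 genes by place and, under the line, for the inducible catalytic genes and the activator genes Psme1 and Psme2. Filled points passed an adjusted p of 0.05. The 34 intervals lie between -0.371 and 0.529, and the genes under the line lie to their right, with an overlap only for the lower end of the Psme2 interval.

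The lean was uneven across libraries. The median level of the 34 genes was 61.3, 57.8, 57.8 and 60.8 FPKM in AAV2-shCX36 libraries 1 to 4, against 54.9, 48.2, 54.8 and 59.3 FPKM in AAV2-scramble libraries 1 to 4. Their summed share of all FPKM was 0.727%, 0.695%, 0.709% and 0.711% in AAV2-shCX36, against 0.650%, 0.574%, 0.663% and 0.699% in AAV2-scramble. AAV2-scramble 4 lay within the range of the AAV2-shCX36 values on both measures, and AAV2-scramble 2 was lowest. It was the lowest of all 8 libraries for 30 of the 34 genes. In the same library the RGC marker sum was lowest and the oligodendrocyte marker sum highest. AAV2-shCX36 1 and 4 were the highest libraries for 11 and 12 of the 34 genes, and their lens marker sums were highest. The part of these marker shifts in the proteasome values was not tested.

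Without AAV2-scramble 2, 27 of 34 genes had positive differences and the median log2 difference was 0.068, against 0.022 for all genes. Without AAV2-scramble 1 and 2, 24 did, and the median of 0.044 was close to that of all genes, 0.040. Without AAV2-scramble 3 and 4 the lean was stronger, with 32 positive and a median of 0.183, against -0.021 for all genes. In that fit 10 of the 34 genes were higher past an adjusted p of 0.05 in limma, with 11.9% of all genes higher past it. Without AAV2-scramble 4 alone, Psmd14 passed (limma adjusted p = 0.0460), with 4.46% of all genes higher past it. Without AAV2-shCX36 1 and 4, which had the highest lens marker sums, 28 of 34 were positive and none reached an unadjusted p of 0.05. The median was then 0.070, against -0.004 for all genes.

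**Figure D4:**
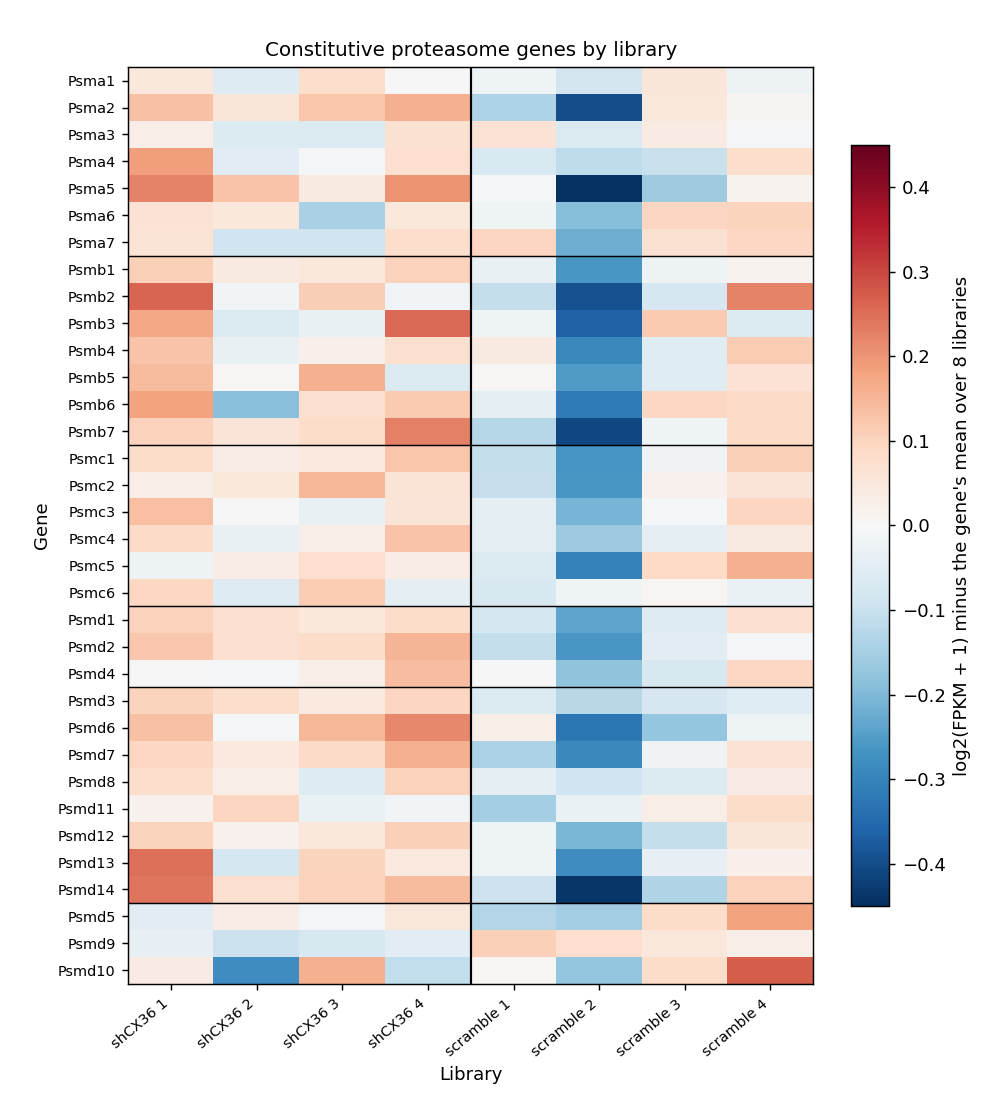
Each of the 34 genes in each library as log2(FPKM + 1) minus its mean over the 8 libraries, in red above and blue below the mean, with AAV2-shCX36 libraries left of the line and AAV2-scramble libraries right of it. The column of AAV2-scramble 2 is blue for nearly all genes, and AAV2-scramble 4 is mostly red, like the AAV2-shCX36 columns.

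The spread within groups also differed. The median coefficient of variation over the 34 genes was 4.92% in AAV2-shCX36 and 9.39% in AAV2-scramble, and it was larger in AAV2-scramble for 27 of 34. The same median over all tested genes was 7.95% in AAV2-shCX36 and 13.1% in AAV2-scramble.

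Genes that act with the particle were described by lists. Of the activators and inhibitor (Psme1, Psme2, Psme3, Psme4 and Psmf1), 2 of 5 rose and none fell. Of all genes, 2.24% rose past the threshold. At an unadjusted p under 0.05 in limma, 4 of the 5 were higher, against 12.3% of all genes. Psme1, a subunit of the interferon-inducible activator cap, averaged 60.7 ± 7.79 FPKM in AAV2-shCX36 and 32.9 ± 2.15 FPKM in AAV2-scramble (SD, n = 4 each; log2 0.86, limma adjusted p = 0.00238). Its partner Psme2 averaged 31.5 ± 3.94 FPKM in AAV2-shCX36 and 20.2 ± 2.09 FPKM in AAV2-scramble (log2 0.62, limma adjusted p = 0.0141). Psme2 shares near-identical sequence with Psme2b, and exons of Psme1 overlap Emc9, so both values are uncertain to that extent.

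Of 7 enzymes and adaptors that bind the particle, 3 were higher at an unadjusted p under 0.05 in limma, against 12.3% of all genes. Past the adjusted threshold 1 rose, against 2.24% of all genes, and none fell. This was Zfand2a, a stress-inducible zinc-finger adaptor, at 28.1 ± 1.34 FPKM in AAV2-shCX36 and 21.7 ± 2.25 FPKM in AAV2-scramble (log2 0.36, limma adjusted p = 0.0381). It passed in 2 of the 8 fits that each left out 1 library, with an adjusted p of up to 0.251 over all alternatives. None of the 2 remaining subunit genes, Sem1 and Adrm1, passed the test in either direction, nor did any of 5 assembly chaperones of the core particle, 6 shuttle factors that deliver ubiquitinated proteins, or 5 ubiquitin genes. At an unadjusted p under 0.05 in limma, 1 shuttle factor (Ddi2) and 1 ubiquitin gene (Rps27a) were lower, as were 10.3% of all genes. No other gene of these 4 lists reached that level. The median log2 difference was 0.23 for the activators and inhibitor, 0.10 for the particle-bound proteins, 0.08 for the remaining subunits, 0.06 for the core assembly chaperones and for the shuttle factors, and 0.04 for the ubiquitin genes, against 0.01 for all genes.

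Of the 6 genes of the bounce-back pathway that regulates the subunit genes, none passed in either direction, and 1, Nfe2l1, was higher at an unadjusted p under 0.05, as were 12.3% of all genes. Nfe2l1 had 108.9, 117.0, 107.7 and 107.3 FPKM in AAV2-shCX36, against 91.3, 77.7, 92.9 and 99.4 FPKM in AAV2-scramble. The groups did not overlap, with AAV2-scramble 2 lowest, and the log2 difference was 0.29 (limma adjusted p = 0.0743). Ddi2, listed among the shuttle factors, encodes the protease that cleaves the Nfe2l1 protein into its active form. It averaged 3.25 ± 0.515 FPKM in AAV2-shCX36 and 4.37 ± 0.393 FPKM in AAV2-scramble (SD, n = 4 each), lower without overlap (log2 -0.34, limma adjusted p = 0.109). The constitutive genes whose promoter held the ARE core shown above had a median log2 difference of 0.09, and those with a promoter entry but no match had 0.10. With and without the CCAAT box the medians were 0.08 and 0.10.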

How the data were processed

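RNA from 8 mouse retina libraries, 4 AAV2-shCX36 and 4 AAV2-scramble, was examined from 1 table of FPKM values, which the authors deposited per gene symbol and library. The submitters' processing notes name fastp, HISAT2, HTSeq, R 3.2.0 and DESeq2 with the builds GRCm38 and mm10, without their settings. The table holds no counts, so no count model was run. Low FPKM steps of single-exon genes put depth at roughly 35900000 to 38800000 fragments a library, an approximate figure, and the lowest of the 34 genes at roughly 410 fragments. Values were taken as log2(FPKM + 1), genes averaging under 1 FPKM across the 8 libraries were dropped, and limma 3.58.1 (R 4.3.3, eBayes with a mean trend) was fitted over 12858 genes with Benjamini-Hochberg adjustment, called at 0.05. Adding 1 FPKM understates the change of low genes. Gjd2 was also tested by an exact permutation test. Fitting was tested on simulated data.

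The members, gene lists, markers and libraries left out were chosen with earlier results of these data known. Values in each library are given for Psmb5, Psmb6, Psmb7, the 6 members of smallest p, and the 2 highest and 2 lowest by mean level, besides Gjd2 and Nfe2l1, which was picked for its values. Alternatives covered the pseudocount, the filter, scaling, the variance model, library weights, a replicate block, the threshold and libraries left out. Gene positions and overlaps come from GENCODE vM21, promoters from RefSeq. Protein sequences were not used here.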

Additional observations from a re-analysis of the deposited data

Results flagged for a closer look

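Of 84 groups of 4 libraries examined for the genes reported with values, 4 held a library far from the other 3, and chance alone flags about 1 in 20 groups. Psma6, an alpha-ring gene, was low in AAV2-shCX36 3 at 50.03 FPKM, with the others of that group at 57.4 to 58.0 FPKM. Psma7, also of the alpha ring, was low in AAV2-scramble 2 at 36.3 FPKM, with the others at 44.6 to 45.4 FPKM. Psmb10, the inducible counterpart of Psmb7, was high in AAV2-scramble 1 at 12.2 FPKM, with the others at 8.02 to 8.54 FPKM. Nfe2l1 was high in AAV2-shCX36 2 at 117.0 FPKM, with the others at 107.3 to 108.9 FPKM.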

How the results depend on the processing

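The count of constitutive proteasome genes past the threshold was 0 in both directions in most alternatives. It was 0 to 1 higher when each library was left out in turn (1 without AAV2-scramble 4), 10 without AAV2-scramble 3 and 4, and 1 at an adjusted p under 0.1. Over 22 alternatives, 10 of the 34 genes passed at least once, 25 never changed sign and 9 did. All 10 passed on omitting AAV2-scramble 3 and 4, where 11.9% of all genes were higher past the threshold. Only Psmd14 passed in another alternative, without AAV2-scramble 4. The median log2 difference of the 34 genes, 0.11, was 0.065 under quantile normalization, 0.044 when AAV2-scramble 1 and 2 were omitted, and 0.183 when AAV2-scramble 3 and 4 were. The cause was not tested.

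All genes past the threshold numbered 612. They numbered 311 with no filter, 171 to 1162 with 1 library left out, 942 on omitting AAV2-scramble 1 and 2, 3441 on omitting 3 and 4 of that group, and 106 on omitting AAV2-shCX36 1 and 4. They numbered 95 at an adjusted p under 0.01 and 1153 at one under 0.1. The log2 difference of Gjd2 ranged from -0.88 to -0.51 with 1 library left out, and its exact p was 0.114 to 0.143 when any AAV2-shCX36 library was the one left out. It was -0.19 on omitting AAV2-scramble 1 and 2, -1.21 on omitting 3 and 4 of that group, and -0.81 on omitting AAV2-shCX36 1 and 4, where these smaller designs gave exact p of 0.133, 0.0667 and 0.133.

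Deviations of same-numbered libraries correlated at 0.128, -0.302, 0.226 and -0.269, and 2 of 8 libraries correlated best with their own number, so the numbers were not taken as pairs. With the replicate block 164 genes passed and 0 of the 34, with a smallest adjusted p among them of 0.144. Psmb8, Psmb9, Psmb10 and Psme1 passed in all 22 alternatives and Psme2 in 20. Without counts in the table, the part of sequencing depth in the spread between libraries was not tested.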
